A study of Homo sapiens with 4 samples.

Results

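The SLC25 family holds the carriers that move metabolites, nucleotides and cofactors across the inner mitochondrial membrane. Its transcripts were followed in hypoxic liver cancer cells with USP22 knocked down and in control cells. Members were all genes of the deposited count table whose symbol begins with SLC25A and a number. Where a gene had several mRNA rows, the row with the highest count summed over the 4 libraries stood for it. This gave 39 genes, from 47 rows, of the 12154 genes in the table. The 9 other family symbols of the list used here, such as SLC25A31 and SLC25A38, were not analysed here.

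An SLC25 protein is a bundle of membrane-spanning helices built from a repeated unit, and most members exchange a substrate of the cytosol for one of the matrix. The ADP/ATP carriers export the ATP that oxidative phosphorylation makes. Others feed the urea cycle, the malate-aspartate shuttle, fatty acid oxidation, iron-sulfur cluster assembly and the glutathione and nucleotide pools of the matrix, and several of these pathways are prominent in hepatocytes. Not every member sits in the inner membrane. SLC25A17 is peroxisomal and SLC25A46 is in the outer mitochondrial membrane.

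The cells were PLC/PRF/5, a human hepatocellular carcinoma line. In the knockdown group, 2 libraries, USP22 was silenced with a lentivirus. The control group, also 2 libraries, carries the title code NC. The gas phase held 1% oxygen and 5% carbon dioxide, and both groups grew in it for 48 h in high-glucose DMEM, so every value below is a level in hypoxia, and no normoxic library was analysed here. USP22 is a deubiquitinase of the SAGA transcriptional coactivator complex. A single line was used, the labels name neither the hairpin nor how many were used, and they do not say that the 2 libraries of a group came from separate cultures. The p-values therefore measure the spread between these libraries, which may be technical.

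Sequence just upstream of the members is shown first, because the cells were hypoxic and because the ADP/ATP carriers SLC25A4 and SLC25A5 moved in opposite directions. RefSeq start sites on GRCh38.p14 were available for 34 of the 39 members, with 41 windows of 250 bases ending at the base before the start. That build was used for sequence only, since the submitters' processing notes name hg19. The 5 windows printed are those of the ADP/ATP carriers SLC25A4 (chr4:185143016-185143265, plus strand), SLC25A5 (chrX:119468194-119468443, plus strand) and SLC25A6 (chrX:1392114-1392363, minus strand). SLC25A43 (chrX:119399086-119399335, plus strand) is shown as the gene next to SLC25A5, and SLC25A15 (chr13:40789361-40789610, plus strand) as the other abundant member that rose. Capitals mark each match, on either strand, to the core of the hypoxia response element, written ACGTG or GCGTG. The sequences read 5′ to 3′ on the gene's strand.
SLC25A4: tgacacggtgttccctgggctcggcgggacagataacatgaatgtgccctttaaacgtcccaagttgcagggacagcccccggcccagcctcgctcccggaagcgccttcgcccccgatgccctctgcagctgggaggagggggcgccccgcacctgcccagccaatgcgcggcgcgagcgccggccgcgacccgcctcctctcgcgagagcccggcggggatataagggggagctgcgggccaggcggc
SLC25A5: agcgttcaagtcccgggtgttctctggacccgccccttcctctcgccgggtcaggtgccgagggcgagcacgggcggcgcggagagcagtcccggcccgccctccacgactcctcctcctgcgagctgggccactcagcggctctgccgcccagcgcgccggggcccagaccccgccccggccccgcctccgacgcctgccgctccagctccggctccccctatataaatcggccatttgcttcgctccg
SLC25A6: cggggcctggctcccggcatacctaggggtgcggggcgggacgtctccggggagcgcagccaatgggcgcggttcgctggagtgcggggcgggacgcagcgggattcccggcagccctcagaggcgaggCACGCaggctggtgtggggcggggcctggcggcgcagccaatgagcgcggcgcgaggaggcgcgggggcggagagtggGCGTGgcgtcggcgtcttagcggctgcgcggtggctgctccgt
SLC25A43: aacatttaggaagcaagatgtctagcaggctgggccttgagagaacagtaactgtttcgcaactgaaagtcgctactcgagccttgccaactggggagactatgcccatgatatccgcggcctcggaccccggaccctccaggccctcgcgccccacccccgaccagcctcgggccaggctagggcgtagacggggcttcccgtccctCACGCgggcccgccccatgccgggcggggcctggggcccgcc
SLC25A15: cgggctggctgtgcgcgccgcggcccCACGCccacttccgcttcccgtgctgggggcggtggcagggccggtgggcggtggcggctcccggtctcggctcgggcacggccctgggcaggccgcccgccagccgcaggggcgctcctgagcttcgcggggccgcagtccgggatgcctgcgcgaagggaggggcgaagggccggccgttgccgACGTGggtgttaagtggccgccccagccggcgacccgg

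No capital stands in the windows of SLC25A4 and SLC25A5, the members with the largest change among the abundant ones. SLC25A6 has 2 matches, SLC25A43 has 1 and SLC25A15 has 2. At least 1 match was found in 33 of the 41 member windows (80.49%), against 55.15% of the 11646 windows of genes with a tested row and 43.21% of all 35116 windows. Among the 9 members called in the comparison, 7 genes had a match. Counted by gene, so did 28 of the 34 members with a window and 5287 of 8325 genes with a tested row. The E-box CACGTG, which contains the core ACGTG, was found in 14.63% of member windows and 8.29% of the windows of tested genes. The consensus palindrome of NRF1, a regulator of nuclear genes for mitochondrial proteins, was found in 0 of the 41, against 1.61% of the windows of tested genes. A match describes letters in these windows and not binding.

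The knockdown libraries held 15027209 and 17194929 counts and the control libraries 15621574 and 16536639. USP22 had 5438 and 7683 counts in the knockdown libraries, against 46513 and 41607 in the control libraries. Its level was 403 ± 62.1 CPM in knockdown and 2755 ± 257 CPM in control cells (SD, n = 2 each), a log2 fold change of −2.77 ± 0.17 (SE). CPM here stands for counts relative to the TMM-scaled library total. The change passed edgeR's quasi-likelihood test (Benjamini-Hochberg adjusted p = 1.36e-06), and all adjusted p-values below come from that test unless another is named. All 11 hepatocyte and hepatoma markers were detected, with summed levels of 35196 to 45078 CPM in knockdown and 27246 to 30376 CPM in control libraries. Of these AFP, APOB, APOH and FGB rose, 0 fell and 7 did not pass. Markers of immune, endothelial and stromal cells summed to 71.7 to 80.3 CPM in knockdown and 74.7 to 77.9 CPM in control libraries. Of the 11 such markers 8 had a row and 6 were tested, of which PECAM1 alone rose. VWF had 0 and 2 counts in the knockdown libraries against 7 and 9 in the control libraries. PTPRC, CD14 and ACTA2 were not analysed here. The part of the shift in hepatocyte markers in the carrier results was not tested. In bulk RNA, fewer cells that express a gene and less of its RNA per cell cannot be told apart.

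Of the 39 members, 34 passed the filter on low counts and were tested. The transcripts of SLC25A5, SLC25A15 and SLC25A42 rose in the knockdown. Those of SLC25A4, SLC25A33, SLC25A36, SLC25A40, SLC25A43 and SLC25A45 fell, and 25 did not pass. SLC25A42 had passed the filter on low counts only through the knockdown libraries. A row is called where its adjusted p was under 0.05, and the 9 calls are 26.5% of the tested members. Among all tested rows 18.7% were called (8.49% higher and 10.2% lower), and with 1 row per gene 20.1% were called (9.08% higher and 11.1% lower). The median log2 fold change of the tested members was −0.08, against −0.00 for 1 row per gene over all tested genes. Member values ran from −1.63 to 3.13, so the family held members moving in both directions. The libraries of the groups did not overlap for 24 of the 34 members (70.6%), against 59.6% of all tested rows and 61.2% with 1 row per gene. The number of members called depended on single libraries. It changed when a library was left out, and so did the share called among all tested rows.

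Rows differed widely in depth. The table holds 1 row per RefSeq mRNA accession, and rows of genes with 3 or more accessions had a median of 118 counts over the 4 libraries, against 2624.5 for genes with 1 accession. Of the 14 members with 1 accession 13 were tested, 2 rose and 4 fell (46.2% called), and for 11 of the 13 the groups did not overlap (84.6%). Among the rows of all genes with 1 accession 28.1% were called, 11.8% higher and 16.3% lower, and for 67% the groups did not overlap. The 25 members with 2 or more accessions gave 21 tested rows, of which 1 rose and 2 fell (14.3%). Among the rows of all genes with 2 or more accessions, lower rows of a gene included, 13.3% were called, 6.65% higher and 6.68% lower. The members gave only their highest row, so these sets are unlike. The median log2 fold change of the tested 1-accession members was 0.16, against −0.05 for all 4456 such rows.

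**Figure D1:**
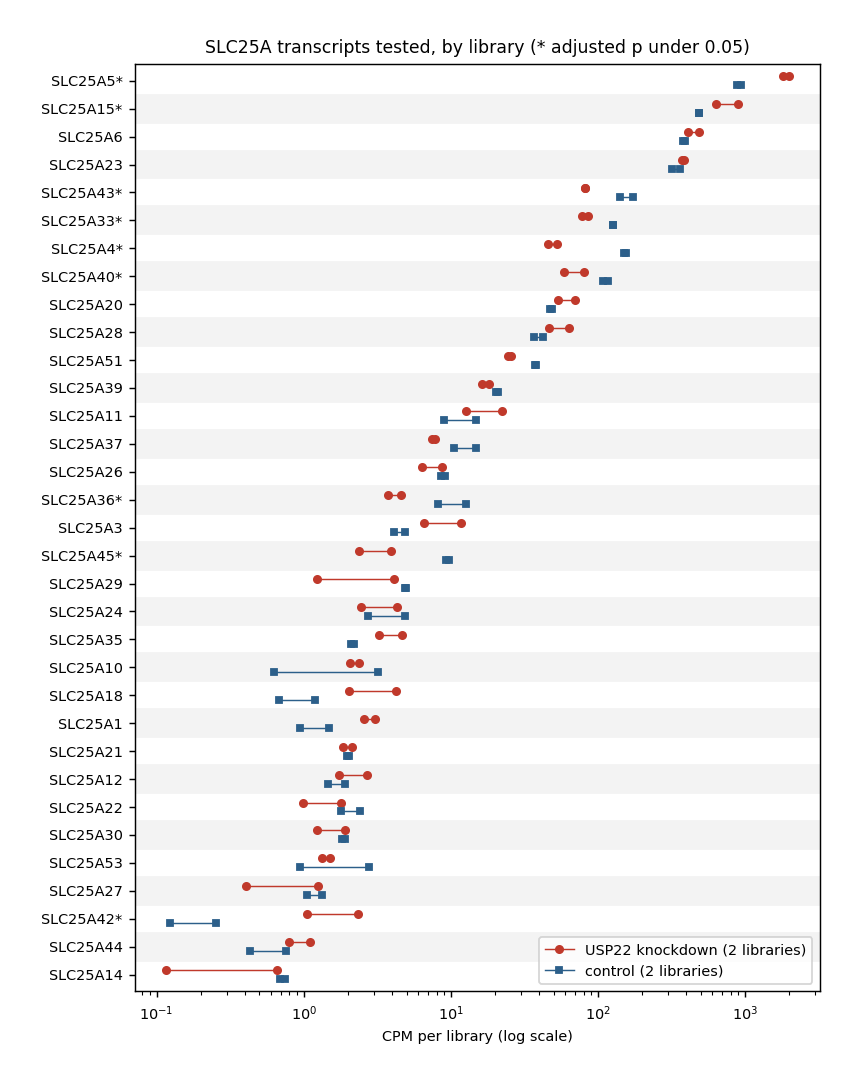
Level of 33 of the 34 tested SLC25A transcripts in CPM (log axis), with circles for the 2 knockdown libraries above squares for the 2 control libraries and a line joining the libraries of a group. Members are ordered by mean level, from SLC25A5 with 1888 CPM in knockdown and 905 CPM in control cells down to SLC25A14, and asterisks mark the 9 members with an adjusted p under 0.05.

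The ADP/ATP carriers SLC25A4, SLC25A5 and SLC25A6 (ANT1, ANT2 and ANT3) exchange cytosolic ADP for matrix ATP. SLC25A5, the isoform of proliferating cells, had 27218 and 33926 counts in the knockdown libraries, against 13896 and 15085 in the control libraries. Every knockdown value was above every control value. The row (NM_001152.4) averaged 1888 ± 125 CPM in knockdown and 905 ± 39.2 CPM in control cells (SD, n = 2 each). It rose 2.09-fold (log2 fold change 1.06 ± 0.15, adjusted p = 0.00033). Per transcript length it was the highest member row in both groups, at 1482 ± 97.8 CPM per kb in knockdown and 710 ± 30.8 CPM per kb in control cells. Among 11880 tested rows with a known length it ranked 43 in knockdown and 83 in control cells. Genes with several accessions have fewer counts per row, so ranks per length order rows and not the levels of whole genes.

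SLC25A4, the isoform typical of heart and skeletal muscle, had 689 and 902 counts in the knockdown libraries, against 2371 and 2493 in the control libraries. Both knockdown libraries lay far below both control libraries. Its row (NM_001151.3) averaged 49.0 ± 4.93 CPM in knockdown and 152 ± 3.15 CPM in control cells. It fell 3.10-fold (log2 fold change −1.63 ± 0.18, adjusted p = 6.34e-05), and among the members with 1 accession this was the largest decrease. On the scale of CPM per kb the SLC25A4 row ranked 11 of 34 member rows in knockdown and 6 in control cells. SLC25A6, expressed in most tissues, had 6209 and 8342 counts in the knockdown libraries and 6198 and 6097 in the control libraries. The groups did not overlap but lay close together. The log2 fold change of SLC25A6 was 0.22, with a 95% interval of −0.12 to 0.56 (adjusted p = 0.37). SLC25A6 lies in the pseudoautosomal region, present on both sex chromosomes, and the sources used here do not say how reads of these copies were assigned.

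Within the summed counts of the 3 genes the mix differed between the groups. SLC25A5 took 79.8% and 78.6% of the counts in the knockdown libraries, against 61.9% and 63.7% in the control libraries. SLC25A4 took 2.02% (95% Wilson interval 1.88 to 2.17) and 2.09% (1.96 to 2.23) in the knockdown libraries. In the control libraries its share was 10.6% (10.2 to 11.0) and 10.5% (10.1 to 10.9). SLC25A6 took 18.2% and 19.3% in the knockdown libraries, against 27.6% and 25.8% in the control libraries. No share of a knockdown library fell within the range of the control libraries. The intervals cover counting error only.

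The ratio of SLC25A5 to SLC25A4 counts was 39.5 and 37.6 in the knockdown libraries, against 5.86 and 6.05 in the control libraries. On the log2 scale it averaged 5.27 ± 0.05 in knockdown and 2.57 ± 0.03 in control cells (SD, n = 2 each). The ratio was thus 6.47-fold higher in knockdown cells, and 6.32-fold to 6.63-fold when each library was left out. It joins 2 members already called in opposite directions in these libraries, so it is no separate support for either call. An exact two-sided permutation test gave p = 0.333, the smallest p that 2 against 2 libraries allow. Per length the ratio was 138 and 131 in the knockdown libraries, against 20.4 and 21.1 in the control libraries. Lengths are those of GENCODE models linked to the accession, and a shorter SLC25A4 model would lower the per-length ratio in both groups alike.

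**Figure D2:**
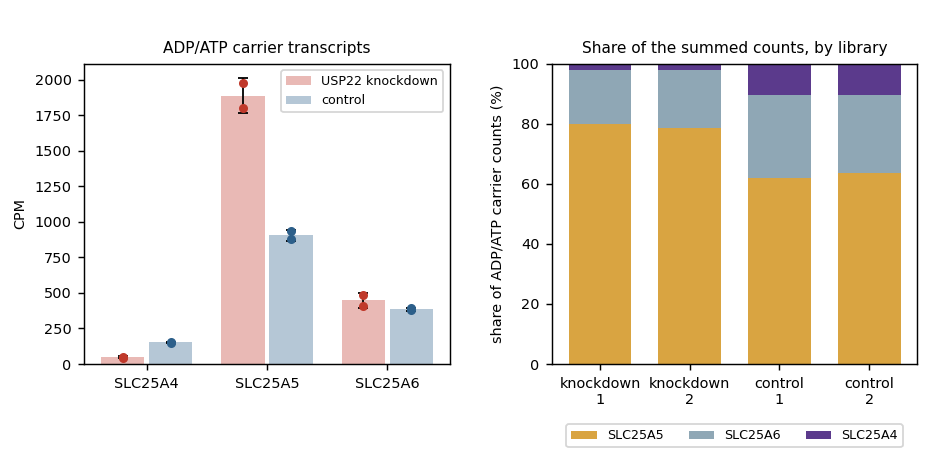
Left, level of the ADP/ATP carrier transcripts in CPM, with bars for the mean of 2 libraries, error bars for the SD and points for the libraries, knockdown left of control. Right, the share of each gene in the summed counts of the 3 genes in each library, where SLC25A4 makes up 2.02% and 2.09% in knockdown and 10.6% and 10.5% in control libraries.

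The 3 transcripts are alike in sequence. The best local alignment of SLC25A4 and SLC25A5 was 77.5% identical over 898 bases, and its longest identical run was 14 bases. For SLC25A4 and SLC25A6 identity was 78.3%, with a longest run of 20 bases. For SLC25A5 and SLC25A6 it was 78.9%, with a run of 29 bases. GENCODE names 9 pseudogenes of SLC25A5, 6 of SLC25A6 and 0 of SLC25A4. The sources used here do not say how reads that match both a gene and its pseudogenes were counted, so the absolute level of SLC25A5 is uncertain. The libraries do not mark strand, and the antisense gene SLC25A5-AS1 overlaps 227 bases (15.1%) of the SLC25A5 exons. Reads of the 2 genes cannot be told apart there.

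SLC25A43, an orphan carrier whose substrate is not settled, is the neighbour of SLC25A5 on chromosome X, with 0 protein-coding genes between them. The SLC25A43 transcript (NM_145305.2) had 1240 and 1405 counts in the knockdown libraries, against 2761 and 2272 in the control libraries. Knockdown values were below control values throughout. It fell to 81.9 ± 0.115 CPM in knockdown cells, against 157 ± 23.9 CPM in control cells (log2 fold change −0.94 ± 0.18, adjusted p = 0.00277). The pair of neighbours therefore moved in opposite directions. Each kept its call without any single library, SLC25A43 with adjusted p-values of 0.000237 to 0.0387.

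Together the 47 rows of the 39 members, all accessions included, took 0.403% and 0.404% of the counts of the knockdown libraries. In the control libraries they took 0.298% and 0.282%. SLC25A5 alone made up 45.0% and 48.9% of the counts of these 47 rows in the knockdown libraries and 29.9% and 32.3% in the control libraries. The higher family total in knockdown libraries thus sat beside a higher SLC25A5 share. An exact permutation test of the family share gave p = 0.333, again the smallest that this design allows.

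Among the amino acid carriers SLC25A15 rose. SLC25A15 (ORC1) exchanges cytosolic ornithine for citrulline of the matrix and so links the cytosolic and mitochondrial steps of the urea cycle. Its transcript (NM_014252.3) had 13596 and 10861 counts in the knockdown libraries, against 7720 and 7888 in the control libraries. The groups did not overlap, but the knockdown libraries lay further apart than the control libraries. SLC25A15 averaged 766 ± 188 CPM in knockdown and 488 ± 0.248 CPM in control cells (log2 fold change 0.65 ± 0.18, adjusted p = 0.022). Its row was second of the member rows per length in both groups, at 483 CPM per kb in knockdown and 307 CPM per kb in control cells. That rank too is of rows and not of whole genes. SLC25A15 was no longer called in fits that left out control replicate 1 (adjusted p = 0.065), control replicate 2 (0.0516) or knockdown replicate 1 (log2 fold change 0.41, adjusted p = 0.0612).

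Other amino acid carriers were measured on few counts and did not pass. SLC25A29, a carrier of basic amino acids, had 62 and 21 counts in the knockdown libraries, against 79 in each control library (log2 fold change −0.90, adjusted p = 0.24). Knockdown replicate 2 was the low one, and without knockdown replicate 1 SLC25A29 was called (−1.97, adjusted p = 0.00915). The branched-chain amino acid carrier SLC25A44 had 12 and 19 counts in the knockdown libraries, against 12 and 7 in the control libraries (0.67, adjusted p = 0.608).

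The aspartate/glutamate carriers of the malate-aspartate shuttle are SLC25A12 (aralar) and SLC25A13 (citrin), the liver form. SLC25A12 had 41 and 30 counts in the knockdown libraries and 23 and 31 in the control libraries, and the groups overlapped (log2 fold change 0.40, 95% interval −0.76 to 1.56). SLC25A13 had 8 and 13 counts in the knockdown libraries against 9 and 2 in the control libraries and was not tested. SLC25A18, a glutamate carrier, had 64 and 35 counts in the knockdown libraries, against 19 and 11 in the control libraries. Its log2 fold change was 1.73 ± 0.59, which did not pass (adjusted p = 0.0594). Fits lacking control replicate 1 (2.19, adjusted p = 0.0224) or knockdown replicate 2 (2.17, adjusted p = 0.021) called it. The glutamate carrier SLC25A22 gave a log2 fold change of −0.57 (adjusted p = 0.546) from its top row and 0.71 (adjusted p = 0.468) from another row. The sign of the SLC25A22 value thus depended on the accession, and with rows summed it was 0.08.

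Carriers of cofactors, glutathione and nucleotides held 4 of the 9 calls. Of 10 such genes with a row 8 were tested, 1 rose, 3 fell and 4 did not pass. The background was 20.1% called with 1 row per gene, and limma-voom called 3 of the 8. The pyrimidine nucleotide carriers SLC25A33 and SLC25A36 fell. SLC25A33 (NM_032315.2) had 1182 and 1478 counts in the knockdown libraries, against 2007 and 2033 in the control libraries. The groups did not overlap, and SLC25A33 averaged 82.1 ± 5.60 CPM in knockdown and 126 ± 0.708 CPM in control cells (log2 fold change −0.62 ± 0.17, adjusted p = 0.0226). SLC25A36 (NM_001104647.1) had far fewer counts, 69 and 64 in the knockdown libraries and 201 and 133 in the control libraries (log2 fold change −1.34 ± 0.34, adjusted p = 0.0161). Here too both knockdown libraries were below both control libraries. Neither call held in every fit that left out a library. SLC25A33 did not pass without control replicate 1 (adjusted p = 0.134), control replicate 2 (0.127) and knockdown replicate 1 (0.0682). SLC25A36 did not pass without control replicate 1 (−0.98, adjusted p = 0.121).

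SLC25A39 and SLC25A40 are paralogous carriers for glutathione import into mitochondria. SLC25A40 (NM_018843.3) had 1221 and 1012 counts in the knockdown libraries, against 1844 and 1756 in the control libraries. Its values did not overlap between the groups, with 69.8 ± 15.4 CPM in knockdown and 113 ± 5.54 CPM in control cells (log2 fold change −0.69 ± 0.19, adjusted p = 0.0251). SLC25A40 did not pass in fits lacking control replicate 1 (adjusted p = 0.124), control replicate 2 (0.0624) and knockdown replicate 2 (−0.47, adjusted p = 0.135). DBF4 on the opposite strand shares 142 bases (2.8%) of its exons. SLC25A39 had 245 and 310 counts in the knockdown libraries, against 332 and 330 in the control libraries, and did not pass (−0.27, 95% interval −0.79 to 0.24). A second SLC25A39 row gave 0.32 (adjusted p = 0.624).

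SLC25A42, the coenzyme A carrier, had the highest fold change of the family on the fewest counts of any called member. Its row (NM_178526.4) had 16 and 40 counts in the knockdown libraries, against 4 and 2 in the control libraries. All 4 values are low, yet the groups did not overlap. Scaled to library size, the summed counts, 56 in knockdown and 6 in control libraries, gave a ratio of 9.25 with an exact 95% interval of 3.99 to 26.3, which covers counting error only. The fitted log2 fold change was 3.13 ± 0.87 (adjusted p = 0.0243), and 3.14 with no filter on low counts (adjusted p = 0.0276). Without knockdown replicate 2 it was 2.45 (adjusted p = 0.421) and without control replicate 2 it was 2.74 (adjusted p = 0.0576).

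SLC25A51, the NAD+ carrier, had 372 and 439 counts in the knockdown libraries, against 605 and 606 in the control libraries. The groups did not overlap, and the log2 fold change of −0.59 (95% interval −1.05 to −0.14) did not pass (adjusted p = 0.0678). SLC25A51 was called under a filter of 5 CPM in 2 libraries (−0.61, adjusted p = 0.0447). The S-adenosylmethionine carrier SLC25A26 had a log2 fold change of −0.23 (adjusted p = 0.673), and 0.02 without knockdown replicate 1. SLC25A16 had 4 counts in each knockdown library, against 6 and 8 in the control libraries, and was not tested. SLC25A17 had 3 and 1 counts in the knockdown libraries, against 12 and 10 in the control libraries, and was not tested either.

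**Figure D3:**
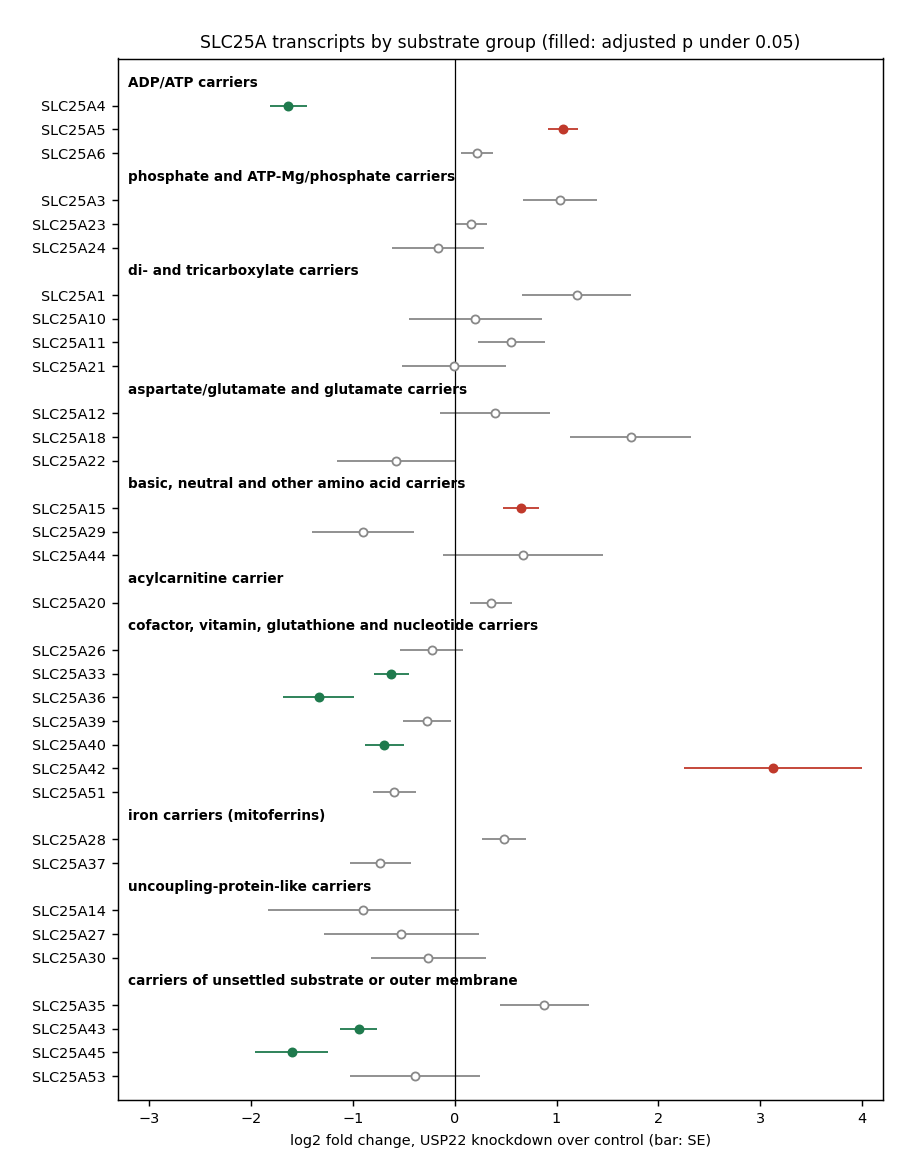
Log2 fold change of knockdown over control (x axis, bars ± SE) for 33 of the 34 tested SLC25A transcripts, grouped by substrate. Filled points mark the 3 that rose (red) and the 6 that fell (green), and values run from −1.63 for SLC25A4 to 3.13 for SLC25A42.

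SLC25A45, a carrier of unsettled substrate, fell. It had 59 and 41 counts in the knockdown libraries, against 153 and 151 in the control libraries (NM_001278251.2, log2 fold change −1.60 ± 0.36, adjusted p = 0.00759). The 2 groups stood well apart. A second row of SLC25A45 (NM_001300820.1), an isoform counted separately, had 2 and 7 counts in the knockdown libraries against 36 and 25 in the control libraries (−2.76 ± 0.81, adjusted p = 0.0297). This second row had passed the filter on low counts only through the control libraries. Its direction was the same, but it is no separate support for the fall. An antisense gene overlaps 69 bases (0.9%) of the SLC25A45 exons. Of the other members of unsettled substrate, SLC25A35 had a log2 fold change of 0.88 (adjusted p = 0.187) and SLC25A53 of −0.39 (adjusted p = 0.729). SLC25A53 had 20 and 26 counts in the knockdown libraries, against 15 and 45 in the control libraries, and 0.60 without control replicate 2. RANGRF on the opposite strand shares 33.2% of the SLC25A35 exon bases, so its reads may include those of RANGRF. SLC25A34 and the outer membrane protein SLC25A46, on 35 and 15 counts over the 4 libraries, were not tested.

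No phosphate, di- or tricarboxylate, glutamate, acylcarnitine, iron or uncoupling-like carrier passed edgeR's test. With 1 row per gene edgeR called 20.1% of all tested genes. These groups were put together because edgeR called none in them, so the 0 is no result about them. Of their 16 tested transcripts 5 had an unadjusted p under 0.05, and DESeq2 and limma-voom, on the same counts, called 0 as well. SLC25A23, a calcium-regulated ATP-Mg/phosphate carrier, was the best measured of them. It had 5626 and 6616 counts in the knockdown libraries, against 5738 and 5121 in the control libraries. In CPM the groups did not overlap, at 372 and 385 CPM in knockdown and 362 and 317 CPM in control libraries, and they were nearly adjacent. Its log2 fold change was 0.16 (95% interval −0.18 to 0.50, adjusted p = 0.542). The paralog SLC25A24 had −0.16 (adjusted p = 0.851) on 37 to 77 counts a library, and 0.32 without control replicate 1 or 0.22 without knockdown replicate 1.

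SLC25A3, the phosphate carrier that supplies ATP synthase, was represented by 2 rows of different isoforms. The larger had 99 and 203 counts in the knockdown libraries, against 65 and 79 in the control libraries (log2 fold change 1.03 ± 0.36, adjusted p = 0.0658). Both knockdown values were above both control values, but the knockdown libraries lay far apart, and without knockdown replicate 1 the row was called (1.43, adjusted p = 0.00355). The second SLC25A3 row had 97 and 132 counts in the knockdown libraries against 85 and 69 in the control libraries (0.55, adjusted p = 0.292). Rows this low say little on a gene with several accessions.

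SLC25A20 carries acylcarnitines into the matrix for fatty acid oxidation. SLC25A20 had 804 and 1208 counts in the knockdown libraries, against 754 and 790 in the control libraries. Knockdown replicate 2 stood above the other 3 libraries, and the log2 fold change was 0.36 (95% interval −0.08 to 0.79, adjusted p = 0.248). The mitoferrins import iron. SLC25A28 (mitoferrin-2) had 706 and 1099 counts in the knockdown libraries, against 583 and 683 in the control libraries (0.49, 95% interval 0.02 to 0.95, adjusted p = 0.138). It did not pass in the fit of all libraries but was called without knockdown replicate 1 (0.73, adjusted p = 0.0135). SLC25A37 (mitoferrin-1), the erythroid form, had 113 and 134 counts in the knockdown libraries, against 236 and 169 in the control libraries (−0.73, 95% interval −1.37 to −0.09, adjusted p = 0.111). The difference between the 2 mitoferrins was not tested.

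The carriers of tricarboxylic acid cycle intermediates were all low rows of genes with several accessions. SLC25A1, which exports citrate for fatty acid synthesis, had 46 and 44 counts in the knockdown libraries, against 15 and 24 in the control libraries (log2 fold change 1.20, 95% interval 0.04 to 2.36, adjusted p = 0.145). Its groups did not overlap. SLC25A11, the oxoglutarate carrier of the malate-aspartate shuttle, had 191 and 384 counts in the knockdown libraries, against 235 and 146 in the control libraries (0.55, adjusted p = 0.272). Here the groups overlapped, and the row was called without knockdown replicate 1 (0.94, adjusted p = 0.0189). SLC25A10, the dicarboxylate carrier, had 31 and 41 counts in the knockdown libraries, against 10 and 52 in the control libraries (0.20, adjusted p = 0.871). The control libraries of SLC25A10 spanned the knockdown ones, and its value was −0.53 without control replicate 1 and 1.82 without control replicate 2. Another gene on the same strand shares 46.6% of its exon bases. SLC25A21, the oxodicarboxylate carrier, had 32 counts in each of the 4 libraries (log2 fold change −0.01, 95% interval −1.11 to 1.10). The 3 uncoupling-like carriers SLC25A14, SLC25A27 and SLC25A30 had log2 fold changes of −0.90, −0.52 and −0.26, on 2 to 31 counts a library, and none passed (adjusted p = 0.561, 0.695 and 0.806). Without knockdown replicate 2 the values of SLC25A14, SLC25A27 and SLC25A30 were −0.11, 0.09 and 0.04, so the last 2 turned positive without that library. Without knockdown replicate 1 they were −2.51, −1.49 and −0.57. With its rows summed SLC25A14 had 0.08.

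Of the 25 members that did not pass, 15 had a mean under 5 CPM, with standard errors of the log2 fold change of 0.44 to 0.94. The remaining 10 had standard errors of 0.16 to 0.36. A threshold missed at such depth does not show equal levels.

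The authors' deposited table gives q-values under 0.05 for 12 of the 39 members, and 22.1% of all 14540 rows had one. The members stand by their highest row only, while the 22.1% counts every row, so these sets are unlike. All 9 members called by edgeR here were among the 12. SLC25A3, SLC25A18 and SLC25A51 passed in the authors' deposited table only, with q-values of 0.0285, 0.0271 and 0.0149. The sign of the fold change was the same for 33 of the 34 tested members. SLC25A21, with equal counts in all libraries, was the exception, at 0.01 in the authors' deposited table and −0.01 in edgeR.

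**Figure D4:**
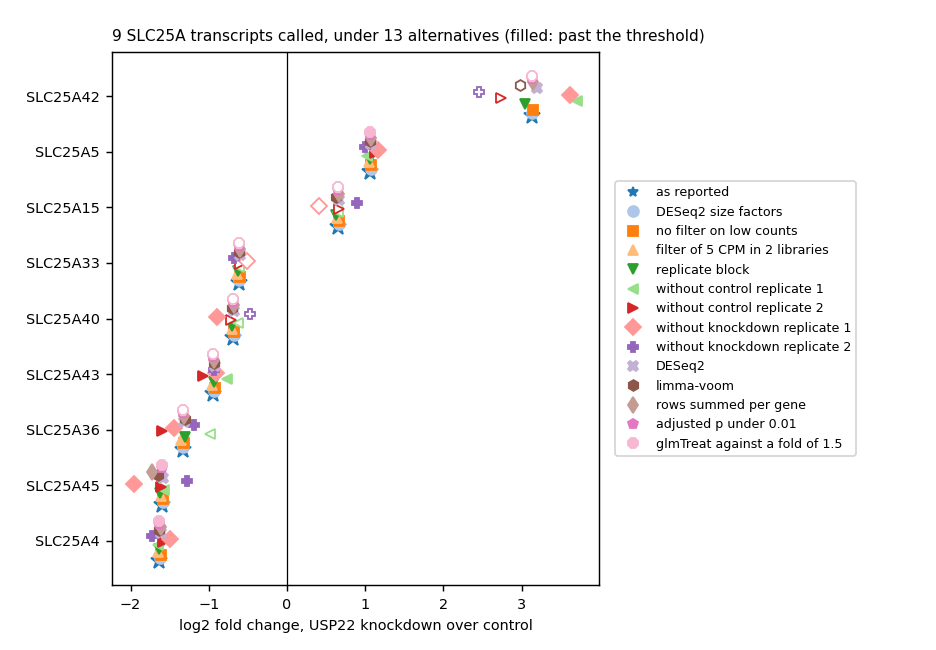
Log2 fold change of knockdown over control (x axis) of the 9 members that passed, as reported (star) and under 13 alternatives, with filled symbols where the call was kept. No value changed sign, though an adjusted p under 0.01 and glmTreat reuse the reported values and could not change it. SLC25A4, SLC25A5 and SLC25A45 kept their calls under each alternative.

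Genes that work beside the family were read from the same fit. Of 23 such genes with a row 20 were tested, with 1 that rose, 2 that fell and 17 that did not pass (15% called, against 20.1% of all genes with 1 row each and 18.7% of all rows). Their median log2 fold change was 0.08. The calls were in sideroflexins, which are inner membrane carriers of another family, and in MTCH1. SFXN2 had 1095 and 1064 counts in the knockdown libraries, against 482 and 524 in the control libraries, and rose (log2 fold change 1.10 ± 0.20, adjusted p = 0.00211). SFXN3, a serine carrier, had 2798 and 2673 counts in the knockdown libraries, against 5080 and 5503 in the control libraries, and fell (−0.96 ± 0.16, adjusted p = 0.00159). Neither sideroflexin overlapped between the groups. MTCH1, an outer membrane protein related to the SLC25 family, had 154 and 225 counts in the knockdown libraries, against 281 and 406 in the control libraries (−0.88 ± 0.27, adjusted p = 0.0407). MTCH1 did not pass in fits lacking control replicate 2 (−0.59, adjusted p = 0.316) or knockdown replicate 1 (−0.67, adjusted p = 0.135).

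The uncoupling proteins UCP2 and UCP3, family members under another name, did not pass (−0.25, adjusted p = 0.351, and −1.90, adjusted p = 0.0921). Carrier proteins reach the inner membrane through the receptor TOMM70, the small TIM chaperones and the TIM22 translocase. Of 8 tested genes of this pathway 0 passed in edgeR, which called 20.1% of all genes with 1 row each. Their log2 fold changes were −0.40 to 0.59, with a median of 0.13. An unadjusted p under 0.05 was reached by 3 of the 8, and DESeq2 called 2 and limma-voom 1. Among all rows DESeq2 called 15.4% and limma-voom 18.5%. A list this short does not show an unchanged pathway. TOMM70 had 0.48 (adjusted p = 0.0506) and TIMM13 0.59 (adjusted p = 0.0536), both just short of the threshold. TOMM70 was called without knockdown replicate 2 (adjusted p = 0.028). TIMM13 and TIMM10 were called without knockdown replicate 1 (adjusted p = 6.89e-05 and 0.0159). Of 4 tested shuttle enzymes 0 passed in edgeR, 1 had an unadjusted p under 0.05, DESeq2 called 1 and limma-voom 0. These 4 are too few to set against the shares of all rows given above. GOT2, the mitochondrial aspartate aminotransferase, had 0.61 (adjusted p = 0.0585) and the cytosolic GOT1 0.33 (adjusted p = 0.197), which was called without knockdown replicate 1 (adjusted p = 0.0265). CPT1A and CPT2, which make and use the acylcarnitines that SLC25A20 carries, had 0.15 (adjusted p = 0.564) and 0.35 (adjusted p = 0.501). Of the outer membrane channels VDAC1 alone was tested (−0.50, adjusted p = 0.498).

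**Figure D5:**
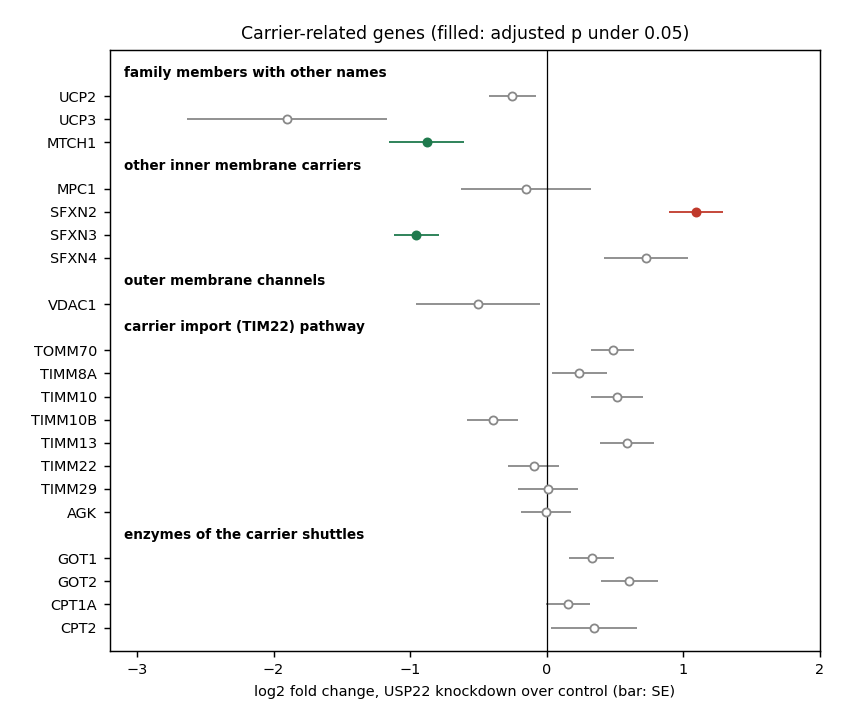
Log2 fold change of knockdown over control (x axis, bars ± SE) for the 20 tested genes that work beside the SLC25 carriers. SFXN2 (red) rose, SFXN3 and MTCH1 (green) fell, and the 8 genes of the TIM22 import pathway lie between −0.40 and 0.59.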

How the data were processed

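Per the labels' protocols, mRNA was isolated from Trizol-extracted RNA and made into libraries by a kit without strand information. HISAT2 2.1.0, HTSeq, bcl2fastq and the build hg19 are listed, without roles, per the submitters' processing notes, and no counting settings are stated in the sources used here. The authors deposited raw counts, 1 row per RefSeq mRNA accession (14540 rows), with their own log2 fold changes, p-values and q-values, used only where named. Every row names a gene, and there was no value column of another sample. Symbols stored as dates were restored for 29 rows.

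Counts were filtered with edgeR's filterByExpr (minimum count 10), which left 12337 rows of 10780 genes, and TMM factors were 0.979 to 1.01. Knockdown minus control was tested with edgeR 4.0.16 (R 4.3.3) by the quasi-likelihood test without covariates. Benjamini-Hochberg adjustment ran over all tested rows, and the threshold was an adjusted p of 0.05. The biological coefficient of variation was 22.1%, and intervals are 95%. The test was checked on simulated data. Chi-square per degree of freedom between the libraries of a group was 33.7 in knockdown and 17.9 in control, above counting noise. Samples were grouped by their titles. Lengths came from GENCODE models (95.9% of rows) and accession numbers per gene from RefSeq (98.5% matched).

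Alternatives were DESeq2 1.42.0 and its size factors, limma-voom (limma 3.58.1), other filters, a block for the replicate number, omission of each library in turn, rows summed per gene, an adjusted p under 0.01 and glmTreat against a fold of 1.5. Per-library values are given for each member past the threshold and for the 10 with the highest mean CPM. Counts over the members include 1 tested member that is not reported here. In related lists the members past the threshold are named. Other genes of these lists, and per-library values of other members, were chosen after their values were seen, as was leaving out libraries in the SLC25A5 to SLC25A4 ratio. The members and lists were themselves chosen with earlier results of these data known.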

Additional observations from a re-analysis of the deposited data

How the results depend on the processing

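Over 13 alternatives and the 13 members of the naming rule (the 9 called and SLC25A6, SLC25A20, SLC25A23 and SLC25A28), 142 of 168 values kept their direction and side of the threshold, 24 lost the call, 2 gained it (both SLC25A28) and 0 changed sign. Among 258 values of the other 21 tested members 9 gained a call, in SLC25A3, SLC25A11, SLC25A18, SLC25A29 and SLC25A51, and 15 turned sign, in 9 members. An adjusted p under 0.01 and glmTreat reuse the reported fold changes, so in them no sign could change and no call could be gained. USP22 kept its call throughout, and the ratio of SLC25A5 to SLC25A4 stayed at 6.32 to 6.63 when libraries were left out. All rows called, 2304 as reported, were 1119 at an adjusted p under 0.01 and 837 by glmTreat against a fold of 1.5. Members called, 9 as reported, were 4 and 3 in these settings, of which 1 and 1 rose and 3 and 2 fell. Leaving out each library gave 5 to 11 members called, 1 to 5 higher and 3 to 6 lower. Such a fit has a lone library in 1 group, assumed to vary like the other group. Called genes of the related lists, 3 as reported, were 6 with a filter of 5 CPM, 6 with DESeq2, 6 with rows summed per gene and 1 by glmTreat. These settings called 29.6%, 15.4%, 21.2% and 6.78% of all rows, in that order. The number of related genes called also changed without some libraries. SLC25A42 has no value under the 5 CPM filter, where SLC25A51 is called in its place, and was not called by limma-voom (2.97). The cause of these changes was not tested, apart from the stricter limits.

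Replicate numbers are shared by the groups, but the labels do not say that a number marks a pair. Deviations of control replicate 1 and knockdown replicate 1 from their group means had a correlation of 0.112 over the tested rows. With 2 libraries a group, the replicate 2 deviations are the same with opposite sign, so this is a single comparison. With the replicate block 3531 rows, 13 members (6 higher) and 8 related genes were called. The members gained were SLC25A3, SLC25A18, SLC25A28 and SLC25A51.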
